A study of Mus musculus with 6 samples.

Results

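The dual-specificity MAP kinase phosphatases are a family of enzymes that switch off MAP kinases, and their 10 catalytically active members (Dusp1, Dusp2, Dusp4, Dusp5, Dusp6, Dusp7, Dusp8, Dusp9, Dusp10 and Dusp16) were taken by gene name from a table of 34745 mouse genes. RNA was sequenced from MLE-12 cells, a mouse lung epithelial line immortalized with a viral oncogene, after transfection with an NR4A1 overexpression plasmid (3 libraries) or with the empty pCMV-SPORT6 vector (3 libraries). The plasmid carried the mouse NR4A1 open reading frame behind the viral promoter of that vector, and both groups received Lipofectamine 2000. Transfected and untransfected cells of a culture were sequenced together, and the hours between transfection and RNA extraction are not given in the sources used here for the sequenced cultures. NR4A1 is an orphan nuclear receptor that is induced within minutes by growth factors and stress, and the comparison asks which genes follow its overexpression in lung epithelial cells. The family was chosen by the fold changes and p-values of this same comparison, in which Dusp4 had passed the threshold, so its differences between the groups are given as a description and are no independent evidence. In RNA from whole cultures, fewer cells that express a gene and less of its RNA per cell cannot be told apart.

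MAP kinases (the ERK, JNK and p38 kinases) are active when a threonine and a neighbouring tyrosine in their activation loop carry phosphate, and these phosphatases remove both. The members fall into 3 classes by location and preferred substrate. Dusp1, Dusp2, Dusp4 and Dusp5 are nuclear enzymes whose genes are typically induced by MAP kinase signaling itself, Dusp6, Dusp7 and Dusp9 are mainly cytoplasmic and prefer ERK, and Dusp8, Dusp10 and Dusp16 prefer JNK and p38. The counts measure messenger RNA and say nothing of enzyme activity.

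All members share the active site motif of cysteine-dependent phosphatases, a histidine and the catalytic cysteine followed, after a short loop with a glycine, by an arginine that binds the phosphate. The coding sequence of that motif is printed to show how far the members differ within it. The motif is common to cysteine-dependent phosphatases and does not by itself define the family. Each stretch runs 5′ to 3′ on the coding strand, read from the GENCODE M21 transcript with the longest coding sequence, and the capitals mark the codons of the catalytic cysteine and of the arginine.
Dusp1: catTGCcaggccggcatctccCGG
Dusp2: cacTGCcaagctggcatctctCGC
Dusp4: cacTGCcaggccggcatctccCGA
Dusp5: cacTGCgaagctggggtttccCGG
Dusp6: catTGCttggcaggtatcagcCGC
Dusp7: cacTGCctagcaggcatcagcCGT
Dusp9: cacTGTctggcaggggtcagcCGC
Dusp8: cacTGTctggctggcatctctCGC
Dusp10: cacTGCcaggccggcgtgtccCGA
Dusp16: cacTGCttagctgggatctctCGC

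The 10 stretches of 24 bases were all distinct, with 11 positions identical in all members and between 13 and 22 identical bases in any pair. On GRCm38 the stretch lies at chr8:34818433-34818456 (plus strand) in exon 4 of 4 of Dusp4, at chr19:53540951-53540974 (plus strand) in exon 4 of 4 of Dusp5, at chr17:26506592-26506615 (minus strand) in exon 4 of 4 of Dusp1 and at chr2:127337616-127337639 (plus strand) in exon 4 of 4 of Dusp2. In the cytoplasmic class it lies at chr10:99266027-99266050 in exon 3 of 3 of Dusp6, at chr9:106373674-106373697 in exon 3 of 3 of Dusp7 and at chrX:73642119-73642142 in exon 4 of 4 of Dusp9, all on the plus strand. In the JNK and p38 class it lies at chr7:142083333-142083356 (minus strand) in exon 6 of 7 of Dusp8, at chr1:184074293-184074316 (plus strand) in exon 4 of 4 of Dusp10 and at chr6:134720559-134720582 (minus strand) in exon 6 of 7 of Dusp16. Of the 50-base stretches of their annotated transcripts, none occurred in a transcript of another gene for 9 members, and 0.187% did for Dusp8. For 8 of the 10 members, all but Dusp1 and Dusp6, the deposited locus was identical to the GENCODE M21 gene.

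Library totals ranged from 15019038 to 17574340 counts. Nr4a1 had between 50660 and 68555 counts in the NR4A1 overexpression libraries, which add up the transfected and the cell's own transcripts, and between 428 and 510 in the vector controls. The epithelial genes Cdh1, Krt8 and Krt19 and the lung genes Nkx2-1, Sftpb, Sftpc and Abca3 were counted at least 189 times in every library, whereas Epcam had at most 22 counts, Cldn7 at most 11, Cldn4 at most 1, Lamp3 at most 6, Sftpd at most 2 and Sftpa1 0 in all 6. Krt18 had between 2 and 21 counts in 5 libraries and 164 in NR4A1 overexpression replicate 2. NR4A1 overexpression replicate 2 stood apart, with 350 genes that reached 1 CPM (counts per 1000000 reads, here on TMM-normalized library sizes) and exceeded each of the other libraries 10-fold or more, against at most 10 such genes in another library. Summed smooth muscle markers reached 354 CPM there against between 20.3 and 29.1 CPM in the other 5 libraries, endothelial markers 115 against between 7.82 and 9.71 CPM, and fibroblast markers 1623 against between 946 and 1069.7 CPM. Replicate 2 was the highest library for 8 of 8 smooth muscle, 7 of 8 endothelial and 7 of 10 fibroblast markers, and for 3 of the 6 immune markers found in the table, which summed to 4.29 CPM there and between 1.91 and 3.28 CPM elsewhere. Vector control replicate 1 also held more fibroblast transcripts and was the highest of the other 5 libraries for 7 of the 10 fibroblast markers, with 284 counts of Col1a2 against 14 and 10 in the other vector controls. Without Dcn, which made up most of the sum in every library, the other 9 fibroblast markers summed to 744 CPM in NR4A1 overexpression replicate 2, to 83.98 CPM in vector control replicate 1 and to between 34.3 and 43.3 CPM in the other 4 libraries. The part of these other cell type transcripts in the members' values was not tested, and the members' fold changes are given with and without NR4A1 overexpression replicate 2.

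Dusp4 and Dusp5, both nuclear phosphatases, stood above the vector controls by 4.95-fold and 4.03-fold with NR4A1 (3.74-fold and 2.30-fold without replicate 2). Dusp6 and Dusp16 were about 1.2-fold to 1.3-fold higher, and Dusp1 was 1.33-fold higher with replicate 2 and at 0.95-fold without it. Dusp7, Dusp8 and Dusp10 were within 2% of the vector control level with all 6 libraries, and at 0.903-fold, 1.01-fold and 0.959-fold without replicate 2. Genes were called when they differed 2-fold or more with an adjusted p below 0.05 in the quasi-likelihood (QL) test of edgeR, adjusted over all genes. Of the 8 members that passed the filter on low counts, 1 was called higher, namely Dusp4, where 0.17% of all 12941 tested genes were called higher. DESeq2 and the exact test called Dusp4 and Dusp5, limma-voom, a replicate block and a filter on a mean of 10 counts called 0 members (adjusted p of Dusp4 0.0778, 0.160 and 0.0775), and limma-voom called 0.216% of all tested genes higher. Without both NR4A1 overexpression replicate 2 and vector control replicate 1, Dusp4 was the member called (log2 fold change 2.03, SE 0.163, QL-adjusted p = 0.00337), beside 0.332% of all tested genes. With the unadjusted p in place of the adjusted one, Dusp4 and Dusp5 met both limits, as did 1.11% of all tested genes, and with no limit on the fold Dusp4, Dusp5 and Dusp6 did, as did 4.02%. No member was called lower (0 at an unadjusted p under 0.05 as well, and 0 with DESeq2, the edgeR exact test and limma-voom). Of all tested genes, 0 were called lower with the QL test, 2 with DESeq2, 1 with the exact test and 0 with limma-voom. With the unadjusted p of the QL test and the 2-fold limit kept, 17 genes (0.131%) were lower, and with no limit on the fold 2.44% were. For 3 of the 8 members, Dusp4, Dusp5 and Dusp6, every NR4A1 library lay above every vector control, a pattern shown by 6.69% of all tested genes, and 0 members showed the opposite, which 6.22% of genes did. The median log2 fold change of the 8 members was 0.32 beside 0.0078 over all tested genes, and it was 0.14 without NR4A1 overexpression replicate 2 and 0.13 without that library and vector control replicate 1.

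**Figure D1:**
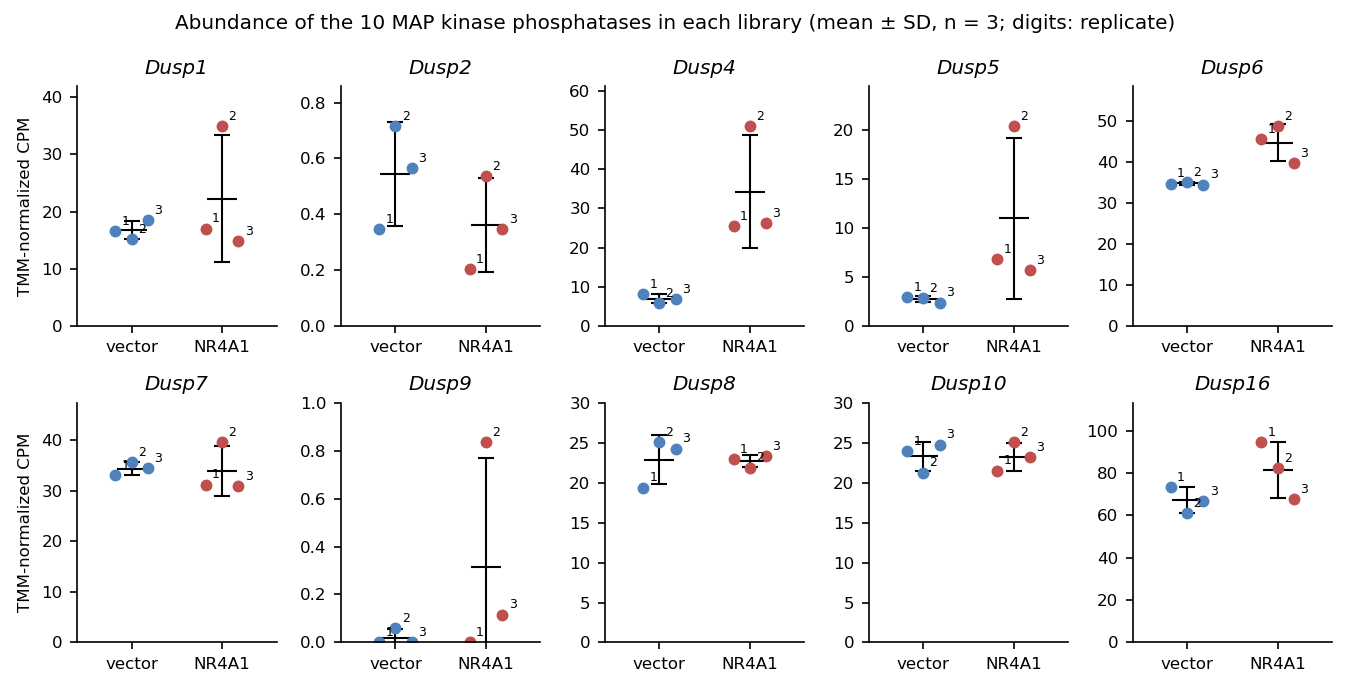
Abundance of each member in each library, in TMM-normalized CPM on an axis that starts at 0, with vector controls in blue, NR4A1 overexpression libraries in red, the replicate number beside each point and bars for the mean ± SD (n = 3). Replicate 2 is the highest NR4A1 library for Dusp1, Dusp4 and Dusp5, with 35.0, 51.1 and 20.4 CPM, and also for Dusp2, Dusp6, Dusp7, Dusp9 and Dusp10.

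Dusp4 (ENSMUSG00000031530; chromosome 8 from 34807297 to 34819894, plus strand) encodes a nuclear phosphatase of ERK and JNK. Its counts were 378, 857 and 456 with NR4A1 (replicates 1, 2 and 3) and 140, 97 and 122 with the vector (replicates 1, 2 and 3), the order kept for all genes that follow. Scaled to library size these were 25.6, 51.1 and 26.3 CPM against 8.10, 5.79 and 6.91 CPM. The lowest NR4A1 library was thus above 3 times the highest vector control, while replicate 2 had about 2 times the level of the other NR4A1 libraries. The group means were 34.3 ± 14.5 and 6.93 ± 1.16 CPM (SD, n = 3 each). The log2 fold change was 2.31 (SE 0.301, QL-adjusted p = 0.0457). Without NR4A1 overexpression replicate 2 it was 1.90 (SE 0.152, QL-adjusted p = 0.00943). Leaving out any of the other 5 libraries kept the log2 fold change between 2.19 and 2.48 and put the QL-adjusted p between 0.132 and 0.254, so that the call was lost in each of these 5 fits while the direction was not.

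Dusp5 (ENSMUSG00000034765; chromosome 19 from 53529109 to 53542431, plus strand) encodes a nuclear phosphatase that acts on ERK. Its counts were 101, 342 and 98 with NR4A1 and 51, 47 and 42 with the vector, or 6.83, 20.4 and 5.66 CPM against 2.95, 2.80 and 2.38 CPM. The groups did not overlap, and replicate 2 lay about 3 times above replicates 1 and 3. The means were 11.0 ± 8.18 and 2.71 ± 0.297 CPM (SD, n = 3 each), and the log2 fold change was 2.01 (SE 0.50). The adjusted p was 0.353 with the QL test, 0.00203 with DESeq2 and 0.0310 with the exact test of edgeR, so that the call depended on the test. With these tests 0.549% and 0.518% of all tested genes were called higher, by DESeq2 and the exact test respectively. Without replicate 2 the log2 fold change was 1.2 (SE 0.207, QL-adjusted p = 0.112), a 2.30-fold difference in place of 4.03-fold. A gene on the opposite strand overlaps Dusp5 in the annotation, as for Dusp1, Dusp8, Dusp10 and Dusp16, and the use of strand in the counting is not given in the sources used here. For Dusp1 the overlap was read on the GENCODE M21 gene, which reaches to 26562128, whereas the deposited locus ends at 26508519. Genes on the same strand also overlap that longer span of Dusp1.

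Dusp1 (ENSMUSG00000024190; chromosome 17 from 26505590 to 26508519, minus strand) encodes the stress-inducible nuclear phosphatase of p38 and JNK. Its counts were 252, 587 and 257 with NR4A1 and 287, 255 and 326 with the vector, or 17.0, 35.0 and 14.8 CPM against 16.6, 15.2 and 18.5 CPM. Only replicate 2 lay outside the range of 14.8 to 18.5 CPM that the other 5 libraries spanned. The log2 fold change of 0.41 (SE 0.313, QL-adjusted p = 0.890) became -0.075 (SE 0.133, QL-adjusted p = 0.860) without that library. Dusp2 (ENSMUSG00000027368; chromosome 2 from 127336159 to 127338376, plus strand), a nuclear phosphatase known from activated lymphocytes, was close to the limit of counting. It had 3, 9 and 6 counts with NR4A1 and 6, 12 and 10 with the vector, and did not pass the filter on low counts. The groups overlapped, and fitted without the filter its log2 fold change was -0.57 (SE 0.587, QL-adjusted p = 0.808).

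**Figure D2:**
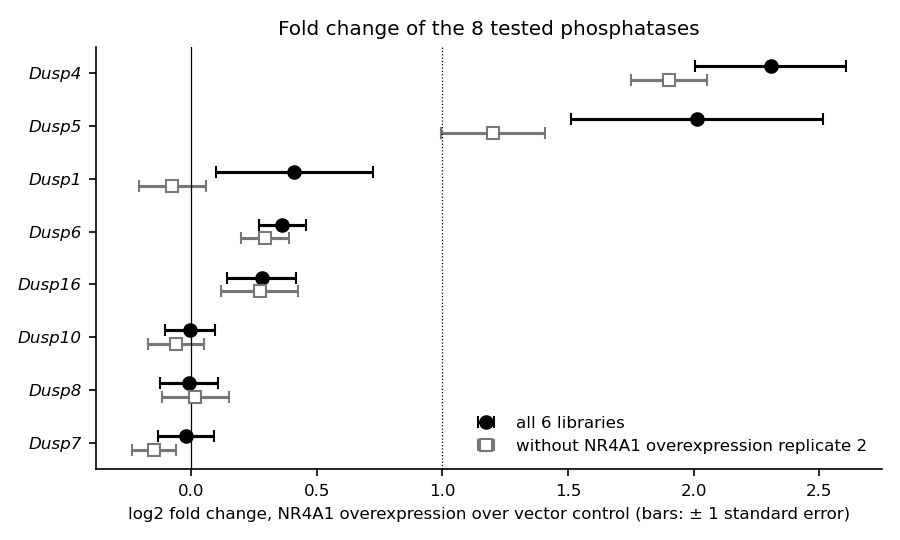
Log2 fold change of the 8 tested members, NR4A1 overexpression over vector control, with all 6 libraries (black circles) and without NR4A1 overexpression replicate 2 (open squares), with bars of ± 1 standard error (SE) and a dotted line at a 2-fold change. Dusp4 moved from 2.31 to 1.90, Dusp5 from 2.01 to 1.2 and Dusp1 from 0.41 to -0.075, while Dusp6 and Dusp16 moved by less than 1 standard error.

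Dusp6 (ENSMUSG00000019960; chromosome 10 from 99263231 to 99267488, plus strand), the cytoplasmic feedback phosphatase of ERK, had 673, 819 and 689 counts with NR4A1 and 600, 588 and 609 with the vector. These were 45.5, 48.8 and 39.8 CPM against 34.7, 35.1 and 34.5 CPM, so that the vector controls lay within 1 CPM of each other and the lowest NR4A1 library was above all of them. Counting error alone is larger than 1 CPM at such counts, so the closeness of the vector controls is no measure of the gene's spread. The log2 fold change was 0.36 (SE 0.0934), a 1.29-fold difference, with a p of 0.00582 before and 0.394 after adjustment over all genes in the QL test. Without replicate 2 it was 0.29 (SE 0.0947, QL-adjusted p = 0.522). Over all 18 alternative fits the log2 fold change stayed between 0.29 and 0.43 and its adjusted p between 0.210 and 0.996. Dusp7 (ENSMUSG00000053716; chromosome 9 from 106368632 to 106375724, plus strand), the closest relative of Dusp6, was at 33.9 ± 4.90 CPM against 34.4 ± 1.29 CPM (SD, n = 3 each), with overlapping groups and a log2 fold change of -0.020 (SE 0.113), or -0.15 (SE 0.0883) without replicate 2. Dusp9 (ENSMUSG00000031383; chromosome X from 73639419 to 73643514, plus strand), which is known for its role in placenta, had 0, 14 and 2 counts with NR4A1 and 0, 1 and 0 with the vector. Its 14 counts in replicate 2 were the only value above 3 counts, and no fold is given.

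Among the JNK and p38 phosphatases no member separated the groups, as held for most tested genes (6.69% separated higher and 6.22% lower). Dusp8 (ENSMUSG00000037887; chromosome 7 from 142079490 to 142095843, minus strand) was at 22.99, 21.9 and 23.4 CPM with NR4A1 and at 19.4, 25.1 and 24.3 CPM with the vector. Dusp10 (ENSMUSG00000039384; chromosome 1 from 184013302 to 184075636, plus strand) was at 21.6, 25.1 and 23.2 CPM against 23.96, 21.3 and 24.8 CPM. For both genes the libraries of the groups were interleaved, with log2 fold changes of -0.0093 (SE 0.115) and -0.0040 (SE 0.10), and of 0.017 and -0.061 without replicate 2. Dusp16 (ENSMUSG00000030203; chromosome 6 from 134715468 to 134792625, minus strand), which prefers JNK, was at 94.4, 82.4 and 67.8 CPM against 73.4, 61.2 and 66.7 CPM. Its NR4A1 replicate 3 lay below vector control replicate 1, and the log2 fold change was 0.28 (SE 0.137, QL-adjusted p = 0.811), or 0.27 (SE 0.154) without replicate 2. The QL-adjusted p of Dusp7, Dusp8 and Dusp10 was 0.986, 0.992 and 0.997.

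Among the 8 tested members, the spread within the NR4A1 overexpression group was widest for the nuclear Dusp5, Dusp1 and Dusp4, with replicate 2 on top. Replicate 2 had 3.26 times the mean of replicates 1 and 3 for Dusp5, 2.19 times for Dusp1 and 1.97 times for Dusp4, on the CPM scale. These 3 of the 8 tested members had at least 1.5 times that mean, as 7.19% of all tested genes did. The ratio was 1.27 for Dusp7, 1.14 for Dusp6, 1.12 for Dusp10, 1.02 for Dusp16 and 0.945 for Dusp8. Replicate 2 was the highest of the 6 libraries for 6 of the 8 tested members, and for 22.7% of all tested genes. The coefficient of variation of the CPM in the vector controls was 0.858% for Dusp6, between 3.76% and 16.7% for the other 7 tested members, and in the NR4A1 overexpression group between 42.3% and 74.7% for Dusp1, Dusp4 and Dusp5.

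**Figure D3:**
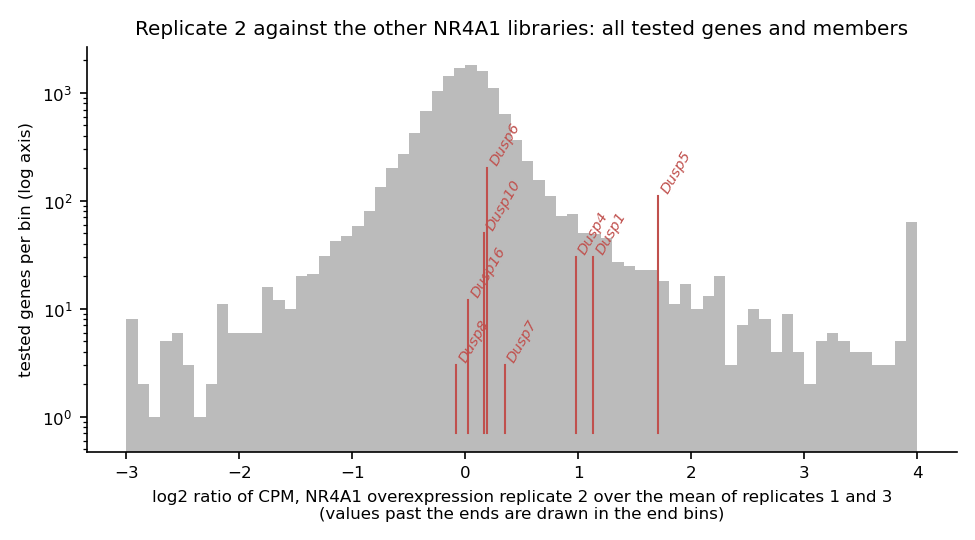
Distribution over all tested genes of the log2 ratio of CPM in NR4A1 overexpression replicate 2 to the mean of replicates 1 and 3, with the number of genes per bin on a log axis, and the 8 tested members as red lines whose heights have no meaning. Dusp5, Dusp1 and Dusp4, at ratios of 3.26, 2.19 and 1.97, lie right of the bulk of genes, and the other 5 members lie between ratios of 0.945 and 1.27.

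Levels of different genes can be compared only per length, and the order of the members depended on the length used. In the deposited FPKM (fragments per kilobase and 1000000 reads), Dusp6 led the vector controls with 12.5 ± 0.153 FPKM (SD, n = 3), followed by Dusp7 with 6.70 ± 0.277, Dusp10 with 6.68 ± 0.50, Dusp16 with 5.20 ± 0.455, Dusp8 with 4.59 ± 0.629, Dusp1 with 3.28 ± 0.310, Dusp4 with 2.55 ± 0.416, Dusp5 with 1.10 ± 0.121, Dusp2 with 0.231 ± 0.0795 and Dusp9 with 0.00739 ± 0.0128 FPKM. The ranges of Dusp7 and Dusp10 and those of Dusp16 and Dusp8 overlapped, and all other neighbours in this order were separate. The length that links count and FPKM was over 1% longer than the longest annotated transcript in 83.2% of 10793 genes with several transcripts. It equalled the summed length of all annotated transcripts for Dusp2, Dusp7 and Dusp10 (2373, 5161 and 3516 bases), as it did within 1% for 5.52% of such genes, and for Dusp1 and Dusp16 it was 2.58 and 2.54 times the length of the coding transcript, which lowers their FPKM.

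Per kilobase of the coding transcript, Dusp16 with 13.1 ± 1.2 CPM per kilobase (SD, n = 3) and Dusp6 with 12.4 ± 0.107 led the vector controls and did not differ beyond their ranges. This scale divides all counts of a gene by the length of 1 transcript. It can therefore overstate genes with several transcripts, such as Dusp1 and Dusp16 with 6 and 7. Dusp7 followed with 10.7 ± 0.402, then Dusp1 with 8.42 ± 0.819 and Dusp10 with 8.37 ± 0.655, whose ranges overlapped, Dusp8 with 4.77 ± 0.641, Dusp4 with 2.53 ± 0.422 and Dusp5 with 1.10 ± 0.120 CPM per kilobase. In the NR4A1 overexpression group Dusp4 reached 12.5 ± 5.29 CPM per kilobase and stood in place 3 of the 10 members in place of 7, behind Dusp6 with 15.99 ± 1.63 and Dusp16 with 15.97 ± 2.61. In replicates 1 and 3 alone it was at 9.33 and 9.61 CPM per kilobase and stood in place 4, just below Dusp7 with 9.72 and 9.62. Dusp5 stayed in place 8 with 4.43 ± 3.31 CPM per kilobase. The length of a gene is the same in every library, so the fold change of a single gene does not depend on it, but sums over genes do.

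**Figure D4:**
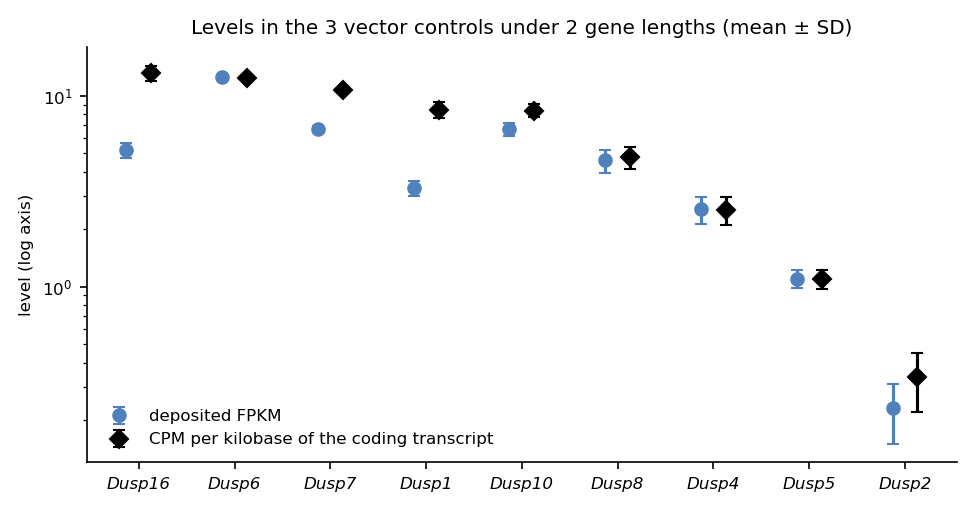
Level of 9 members in the 3 vector controls (mean ± SD, log axis), as deposited FPKM (blue circles) and as TMM-normalized CPM per kilobase of the coding transcript (black diamonds), with Dusp9 left out because of its counts of 0. Dusp16, Dusp1 and Dusp7 differ most between the scales (5.20 against 13.1, 3.28 against 8.42 and 6.70 against 10.7), whereas Dusp4, Dusp5 and Dusp6 are nearly the same on both.

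Added up over the family, the 10 members had 42.8, 42.2 and 43.6 FPKM in the vector controls and 54.9, 76.5 and 51.6 FPKM in NR4A1 overexpression replicates 1, 2 and 3. The nuclear class made up 17.6%, 15.6% and 16.9% of the deposited family FPKM in the vector controls and 27.8%, 43.9% and 28.9% in the NR4A1 overexpression libraries. Dusp4 alone took 5.94 ± 0.940% of the family FPKM in the vector controls and 19.8 ± 3.86% in the NR4A1 overexpression group (SD, n = 3 each). The nuclear class summed to 2.97 times its vector control level in FPKM and 2.29 times per kilobase of the coding transcript, and the whole family to 1.42 and 1.36 times. In replicates 1 and 3 alone the nuclear class averaged 15.1 FPKM, against 21.3 FPKM with replicate 2 and 7.16 FPKM in the vector controls. Within that class Dusp4 and Dusp5 were higher, whereas Dusp1 was at 0.95-fold without replicate 2 and the groups of Dusp2 overlapped. Per kilobase of the coding transcript the share of the nuclear class was 20.0 ± 0.950% against 32.5 ± 8.96%. The JNK and p38 class summed to 16.5 ± 0.594 FPKM in the vector controls and 17.3 ± 0.720 FPKM in the NR4A1 overexpression group, and the cytoplasmic ERK class to 19.2 ± 0.414 and 22.5 ± 2.52 FPKM (SD, n = 3 each). These sums are a description with no test, since the members were chosen with the comparison known.

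The genes outside the family whose pattern was most like that of Dusp4 were found by the root mean square difference of log2 CPM over the 6 libraries, each gene taken relative to its own vector control mean. A group difference near that of Dusp4 is therefore part of how these genes were chosen. Their fold changes and p-values are given as a description and are no independent evidence. Krt13, a keratin of stratified epithelium, was nearest with a difference of 0.295, with counts of 79, 109 and 88 under NR4A1 and 17, 19 and 20 under the vector (log2 fold change 2.37, QL-adjusted p = 0.0163, and 2.26 and 0.0239 without replicate 2). Col11a1, a fibrillar collagen gene, followed with 0.317, with counts of 561, 1425 and 627 against 265, 197 and 267 (log2 fold change 1.91, QL-adjusted p = 0.139, and 1.40 and 0.0173 without replicate 2) and with its highest value in replicate 2 as for Dusp4. Gngt2 (0.364), Gm4673 (0.383) and Rapgef5 (0.417) came next. Within the family, Dusp5 was at 0.456 from Dusp4 and the other 6 tested members between 1.35 and 1.63.

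The other genes of the MAP kinase pathway, taken from textbook lists, gave no calls. By the rule above, 0 of 12 tested MAP kinases, 0 of 13 MAP kinase kinases, RAF and RAS genes, 0 of 9 atypical and other dual-specificity phosphatases, 0 of 7 other phosphatases that act on MAP kinases, 0 of 6 Sprouty and Spred genes and 0 of 15 ERK-induced genes passed with the QL test, and DESeq2, the exact test and limma-voom called 0 of each list as well. Of all tested genes these tests called 0.17% (QL), 0.549% (DESeq2), 0.518% (exact test) and 0.216% (limma-voom) higher. At such shares, counts of 0 in lists of this size say little about the pathway. At an unadjusted p under 0.05 regardless of the fold, 2 ERK-induced genes were higher, 1 gene of the MAP kinase kinase list was lower and 0 genes of the other lists passed, where 4.02% of all tested genes were higher and 2.44% lower at that limit. Both ERK-induced genes encode ETS transcription factors. Etv5 had 594, 675 and 695 counts against 529, 538 and 616 (log2 fold change 0.30, SE 0.0789, QL-adjusted p = 0.402), and Etv4 a log2 fold change of 0.35 (SE 0.142, QL-adjusted p = 0.752). Map2k3, a kinase that activates p38, had a log2 fold change of -0.40 (SE 0.152, QL-adjusted p = 0.716). Without replicate 2 the log2 fold changes of Etv5, Etv4 and Map2k3 were 0.30, 0.26 and -0.39.

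In the same lists, the smallest p-values among the MAP kinases were those of Mapk11, a p38 kinase, and Mapk6, an atypical kinase of the ERK family, with log2 fold changes of -0.27 and 0.13. The small GTPase gene Nras had a log2 fold change of 0.62 (SE 0.318), with 733 counts in vector control replicate 2 against between 1684 and 2389 counts in the other 5 libraries. Among the atypical dual-specificity phosphatases Dusp14 and Dusp12 had log2 fold changes of -0.21 and 0.19. Ppm1a and Ptpn7, which encode other phosphatases of MAP kinases, had -0.14 and -0.26, and the feedback inhibitors Spred2 and Spred1 had 0.18 and 0.13. The QL-adjusted p of these 9 genes, from Mapk11 to Spred1, was at least 0.828. The medians of the 6 lists lay between -0.013 and 0.12 on the log2 scale, beside 0.32 for the 8 tested phosphatases and 0.0078 for all tested genes. Without replicate 2 the lists lay between -0.043 and 0.063 and the phosphatases at 0.14.

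**Figure D5:**
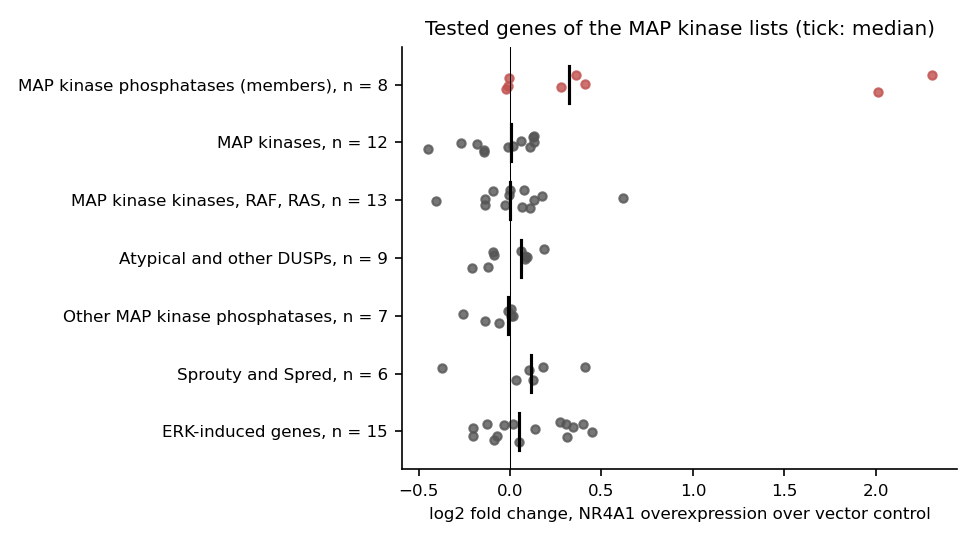
Log2 fold change, NR4A1 overexpression over vector control, of every tested gene of the phosphatase family (red) and of the 6 other MAP kinase lists (grey), with a tick at the median of each list. The median is 0.32 for the phosphatases, with Dusp4 and Dusp5 at 2.31 and 2.01, and between -0.013 and 0.12 for the other lists. Without NR4A1 overexpression replicate 2, not drawn here, the median of the phosphatases is 0.14 and Dusp4 and Dusp5 are at 1.90 and 1.2.

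The promoters were read from RefSeq (GRCm38.p6) as the 250 bases before to 50 bases after the annotated start, for the 8 members with an entry, all but Dusp4 and Dusp9. They were searched on both strands for the NBRE, the element bound by NR4A1 monomers (AAAGGTCA), the cyclic AMP response element (TGACGTCA), the AP-1 site (TGANTCA) and the CArG box of serum response factor. The background, called all windows here, was 32851 promoter windows, from which those of a single chromosome that carries no member had been left out. The NBRE letters occurred in 0 of the 8 windows and in 1.51% of all windows, and those of the AP-1 site in 0 of the 8 and in 7.81% of all. The cyclic AMP response element occurred in Dusp1 and Dusp8, 2 of the 8 windows, and in 1.79% of all windows. The CArG box occurred only in the window of Dusp5, where 2 copies follow each other directly, and in 1.63% of all windows. The matches are printed with 10 bases on either side and the motif in capitals, on the strand of the gene.
Dusp5, first copy: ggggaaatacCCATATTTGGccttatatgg
Dusp5, second copy: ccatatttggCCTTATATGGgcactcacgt
Dusp1: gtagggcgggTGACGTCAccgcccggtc
Dusp8, distal copy: cccgctccgcTGACGTCAcctgcccccg
Dusp8, proximal copy: tggctgcaggTGACGTCAggggcttttt

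The printed stretches lie at chr19:53529053-53529082 and chr19:53529063-53529092 for Dusp5, at chr17:26508598-26508625 for Dusp1, and at chr7:142095374-142095401 and chr7:142095330-142095357 for Dusp8. The 8 windows were rich in G and C, with a median of 67.8% against 52.7% over all windows, and a median observed to expected ratio of CpG of 0.850 against 0.384. The background was not matched for this composition, and the cyclic AMP response element contains a CpG. Whether its share in the members exceeds that of windows of like composition was not tested. A match of letters is a description of the sequence, not a measured binding site, and no binding was measured in these samples.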

How the data were processed

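RNA-seq libraries of MLE-12 cells (3 with NR4A1 overexpression, 3 vector controls) were grouped by the treatment label, and replicate numbers were taken from the sample titles. The authors deposited 1 table that lists for every gene the read count and the FPKM of each library. Per the labels, HISAT2 2.0.4 and GRCm38.p4 were named in the processing notes. The counting program, annotation and strand setting are not given in the sources used here. The libraries were prepared with a stranded kit. The labels do not say that the cultures were separate, so p-values measure the spread between these libraries, which may be technical.

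Counts were normalized with TMM, filtered with filterByExpr and tested with edgeR 4.0.16 (quasi-likelihood test, R 4.3.3) with Benjamini-Hochberg adjustment over all 12941 genes left. Each standard error (SE) is the fitted log2 fold change divided by the square root of its F value. Calls needed a 2-fold difference or more together with an adjusted p below 0.05. In libraries of this size 3 counts equal between 0.170 and 0.203 CPM, which covers counting error only. The tests were also run on simulated counts, drawn with no library that stood apart. That run says nothing of how a library such as NR4A1 overexpression replicate 2 affects the calls. Pairs of libraries of 1 group differed by more than counting error (chi-square per degree of freedom between 9.36 and 41.8), so none was treated as a copy of another. The largest values, 41.8 and 31.0, were those of the pairs with NR4A1 overexpression replicate 2. All 6 libraries were used in the main fit.

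The members, the lists and the alternatives (the exact test of edgeR, DESeq2 1.42.0, limma-voom, and limma 3.58.1 on log2(FPKM + 1) or log2(FPKM + 0.1), other scalings and filters, a replicate block, each library left out) were chosen with earlier results of these data known. The level per kilobase of the GENCODE M21 coding transcript and the fit without NR4A1 overexpression replicate 2 and vector control replicate 1 were chosen later, with the values in view. Named were Nr4a1, the members, the 5 genes with a pattern nearest to Dusp4, and in each pathway list the genes called or, with none called, the 2 with the smallest p. Other genes named beside a result, such as marker genes, were added after their values were seen. Sequences were processed with Python 3.11.15.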

Additional observations from a re-analysis of the deposited data

How the results depend on the processing

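All 8 tested members kept the direction of their fold change over the 11 alternatives that used all 6 libraries. The call of Dusp4 held with DESeq2, the exact test, median-ratio factors, library totals, no count filter and without NR4A1 overexpression replicate 2 alone. Its log2 fold change was 2.18 with limma on log2(FPKM + 0.1) (adjusted p = 0.0563), 1.86 with log2(FPKM + 1) with and without the filter (adjusted p = 0.0814 and 0.169), 2.24 with limma-voom (0.0778) and 2.31 with a mean of at least 10 counts (0.0775), none of which passed. The deviations of same-numbered libraries had correlations near 0 for replicates 1 and 2 (-0.011 and -0.046) and a positive one for replicate 3 (0.246). The replicate block was used only as an alternative. With the block Dusp4 had a log2 fold change of 2.23 (adjusted p = 0.160), 5 genes were called higher and 0 members were called. Leaving out each library gave log2 fold changes between 1.90 and 2.48 for Dusp4, -0.075 and 0.62 for Dusp1, -0.15 and 0.034 for Dusp7, -0.12 and 0.059 for Dusp8 and -0.066 and 0.048 for Dusp10. It gave between 3 and 25 genes called higher, between 0 and 3 called lower and between 0 and 1 members, with 25, 3 and 1 without NR4A1 overexpression replicate 2. Genes called higher numbered 71 with DESeq2, 67 with the exact test, 28 with limma-voom, 144 with an unadjusted p, 8 with a mean of at least 10 counts and with log2(FPKM + 0.1), and 7 with log2(FPKM + 1) with and without the filter. Genes called lower numbered 2 with DESeq2, 1 with the exact test, 17 with an unadjusted p and 1 with no fold threshold. The members called higher were 2 with DESeq2, the exact test and an unadjusted p, and 0 with limma-voom, all limma fits on FPKM and a mean of at least 10 counts. Per kilobase of the coding transcript the family sum was 84.1 in the NR4A1 overexpression group and 61.8 in the vector controls, and 4 of the 10 members kept their place in the order. With NR4A1 overexpression replicate 2 and vector control replicate 1 both left out, chosen after seeing the data, 43 genes were called higher and 4 lower, Dusp4 stayed called, and the log2 fold change of Dusp1 was -0.081. The causes of these shifts were not tested, other than fewer libraries or another length by construction.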

Other observations

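Spry1, a feedback inhibitor of receptor signaling to ERK that was singled out after its values were seen, had 14, 405 and 368 counts with NR4A1 (replicates 1, 2 and 3) and 279, 310 and 7 with the vector (replicates 1, 2 and 3). The low libraries thus came 1 from each group, and its log2 fold change was 0.41 (SE 1.21, QL-adjusted p = 0.976). Its relatives Spry2 and Spred3 had between 382 and 463 and between 359 and 417 counts over the 6 libraries.

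Among the atypical dual-specificity phosphatases, Dusp13, Dusp21, Dusp27 and Dupd1 had 0 counts in all 6 libraries. Dusp3, a small phosphatase of the same group, had between 1022 and 1322 counts.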
